A study of Mus musculus with 16 samples.

Results

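The combined lesion described here was made by tying a ligature around a tooth and overloading the same tooth, and it was compared with untreated tissue across all expressed genes. Its members were chosen by the labels alone: the 4 libraries of the ligature plus trauma group (LiTra) and the 4 of the control group (Co), 8 of the 16 libraries of the series, with 20953 of 55359 listed genes expressed highly enough to be tested. All mice were wild-type male C57BL/6J aged 9 weeks. Control mice had no treatment. Ligature plus trauma mice had both a silk thread tied around the upper left second molar and composite resin built up on the chewing surface of that molar. The groups with the thread alone (Li) and the resin alone (Tra), 4 libraries each, shared the model and served as further references. The time between operation and sampling is not given in the sources used here. The labels number the libraries within a group without saying that each is a separate mouse, so p-values measure the spread between libraries, which may be technical.

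The periodontal ligament is the collagen-rich tissue that suspends the tooth root in its bony socket. Its fibroblasts keep the fibres, and osteoblasts and osteoclasts on the facing bone build and resorb it. A ligature gathers bacterial plaque at the gum margin and is a common way to bring on periodontitis, in which neutrophils and macrophages enter the tissue and RANKL, the osteoclast-inducing ligand, drives bone loss. Traumatic occlusion, an excessive biting load, strains the ligament mechanically.

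Total counts were 68946101 to 77468584 in Co and 59845593 to 72301909 in LiTra. Postn, which encodes the ligament matrix protein periostin, was detected in every library. It stood at 6008, 18943, 31406 and 27839 CPM in Co 1 to 4 and 26800.2, 21046, 15479 and 21891 CPM in LiTra 1 to 4. The summed level of the ligament fibroblast list was also lowest in Co 1. It was 21624 CPM there, 50880 to 69860.5 CPM in Co 2 to 4 and 34707 to 57242 CPM in LiTra. LiTra 2 and LiTra 3 stood apart from the other 2 libraries of their group by transcript length. Across genes, the rank correlation of transcript length with a library's deviation from the mean of all libraries was -0.325 in LiTra 2 and -0.333 in LiTra 3, against 0.0054 in LiTra 1, 0.165 in LiTra 4 and 0.0849 to 0.295 in Co. Li 2 had -0.390. Main counts are therefore given a second time from a fit of 13 libraries without Li 2, LiTra 2 and LiTra 3, which leaves 2 LiTra libraries. Markers of other tissues varied too. The summed level of 25 genes of suprabasal oral epithelium was 7199, 12293, 2031 and 744 CPM in Co 1 to 4 and 587 to 1777 CPM in LiTra, and that of 24 skeletal muscle genes 10.5 to 418 CPM in Co and 23.2 to 231 CPM in LiTra. CPM are counts scaled to a common library size. In bulk tissue, fewer cells of a type and less RNA per cell cannot be told apart.

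Of 20953 genes tested, 2609 passed at an adjusted p under 0.05, or 12.5%, in edgeR's quasi-likelihood test with Benjamini-Hochberg adjustment, the source of all adjusted p-values below unless another is named. 1431 were higher in LiTra (6.83%) and 1178 lower (5.62%). These shares are the background to every list count below, and a count near them is not a result about its list. The median log2 fold change over all genes tested was -0.08. Of the genes that passed, 2142 differed at least 2-fold, 908 at least 4-fold (407 higher, 501 lower) and 324 at least 16-fold (99 higher, 225 lower). In 2266 of the 2609 the 4 LiTra libraries did not overlap the 4 Co libraries, against 4440 of all genes tested (21.2%). Genes that passed higher had a median transcript length of 1236 bases, those lower 2762.5 and all tested 1876.5. Of 1813 pseudogenes tested 128 passed, 112 of them higher.

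The number of genes passing varied with the libraries used, and a fit with 1 left out also has fewer libraries behind it. It was 1340 without Co 1, 1316 without Co 2, 1955 without Co 3 and 1560 without Co 4. It was 2405 without LiTra 1, 1101 without LiTra 2, 1022 without LiTra 3 and 2785 without LiTra 4. In the 13 libraries 743 of 22807 genes passed (3.26%), 486 higher (2.13%) and 257 lower (1.13%). 689 of the 2609 were among them, and 2606 of the 2607 that could be tested kept their direction.

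**Figure D1:**
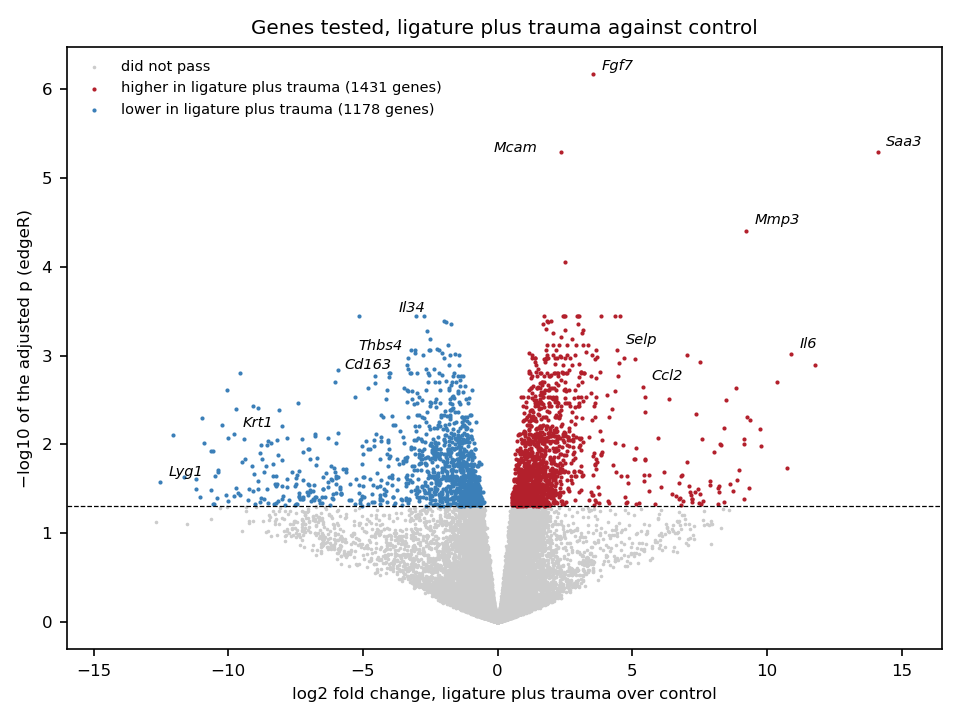
Log2 fold change of LiTra over Co (horizontal axis) against −log10 of the edgeR adjusted p (vertical axis) for the 20953 genes tested, each point 1 gene; the dashed line is an adjusted p of 0.05. Saa3 and Mmp3 lie far to the right, Fgf7 and Mcam have the lowest p at moderate fold changes, and genes of cornified epithelium such as Krt1 and Lyg1 lie far to the left with p nearer the line.

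Acute-phase and inflammatory genes gave the largest increases. The 10 genes with the largest change each way were picked among those without overlap between groups. For them the lack of overlap was fixed by the choice. Saa3 (ENSMUSG00000040026.9), which encodes a serum amyloid A made at sites of inflammation, stood at 0.979, 0.368, 0.399 and 0.323 CPM in Co 1 to 4 and 4335, 10351, 20656 and 1942 CPM in LiTra 1 to 4. Every LiTra library lay far above the highest control (log2 fold change 14.13 ± 1.103 (SE), edgeR adjusted p = 5.08e-06). Il6 (ENSMUSG00000025746.12), the gene of a cytokine that induces acute-phase proteins, was nearly silent in control, at 0.0483, 0, 0.309 and 0 CPM in Co 1 to 4 and 115, 354, 117 and 119 CPM in LiTra 1 to 4. Its groups did not overlap (log2 fold change 10.89 ± 1.55 (SE), edgeR adjusted p = 0.000971). Mmp3 (ENSMUSG00000043613.9), which encodes the matrix protease stromelysin-1, stood at 1.704, 1.55, 0.682 and 0.534 CPM in Co 1 to 4 and 445, 886, 960.4 and 398 CPM in LiTra 1 to 4, again without overlap (log2 fold change 9.23 ± 0.85 (SE), edgeR adjusted p = 3.9e-05). In the 13 libraries the log2 fold changes were 12.55 for Saa3, 10.296 for Il6 and 8.55 for Mmp3, with edgeR adjusted p of 1.46e-05, 0.00763 and 0.00151.

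The 250 bases before the start of these genes are shown because they are among the genes that rose most and hold short motifs of inflammatory transcription factors. Of the 10 genes with the largest rises, 8 had a promoter in the table used. The other 3, Rln1, Stfa2l1 and Prnd, are not shown: none holds a match to NF-kappa-B, AP-1 or C/EBP, and Rln1 holds 1 TATA match. The sequences are from RefSeq on GRCm38.p6, read 5′ to 3′ on the gene's strand. Capitals mark matches to the motifs of NF-kappa-B (GGG, 3 bases of any kind, then TTCC), AP-1 (TGANTCA), C/EBP (TTGCNNAA) and the TATA box (TATAAA), searched on both strands. No marked match overlaps another. The positions are chr7:46715677-46715926 (minus strand), chr5:30012864-30013113 (plus strand), chr9:7445572-7445821 (plus strand), chr7:46742981-46743230 (minus strand) and chr7:46751583-46751832 (plus strand).
Saa3: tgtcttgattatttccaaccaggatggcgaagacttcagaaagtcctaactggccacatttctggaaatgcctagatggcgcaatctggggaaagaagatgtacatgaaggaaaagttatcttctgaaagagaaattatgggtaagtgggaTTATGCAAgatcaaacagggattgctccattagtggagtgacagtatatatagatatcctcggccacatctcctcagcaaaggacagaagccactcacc
Il6: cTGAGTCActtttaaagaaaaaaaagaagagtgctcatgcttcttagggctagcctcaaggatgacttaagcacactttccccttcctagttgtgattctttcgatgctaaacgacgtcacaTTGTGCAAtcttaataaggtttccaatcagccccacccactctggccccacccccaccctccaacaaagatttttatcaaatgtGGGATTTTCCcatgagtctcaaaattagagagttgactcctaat
Mmp3: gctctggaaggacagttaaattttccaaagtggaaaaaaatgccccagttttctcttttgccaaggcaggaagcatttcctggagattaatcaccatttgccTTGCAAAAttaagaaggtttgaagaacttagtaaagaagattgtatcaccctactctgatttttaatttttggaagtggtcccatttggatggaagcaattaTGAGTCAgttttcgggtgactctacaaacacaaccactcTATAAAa
Saa1: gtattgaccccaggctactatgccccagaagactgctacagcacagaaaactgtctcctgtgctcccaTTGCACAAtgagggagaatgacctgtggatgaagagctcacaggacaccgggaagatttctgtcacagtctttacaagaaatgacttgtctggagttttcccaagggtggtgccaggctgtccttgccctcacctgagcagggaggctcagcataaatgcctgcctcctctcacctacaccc
Saa2: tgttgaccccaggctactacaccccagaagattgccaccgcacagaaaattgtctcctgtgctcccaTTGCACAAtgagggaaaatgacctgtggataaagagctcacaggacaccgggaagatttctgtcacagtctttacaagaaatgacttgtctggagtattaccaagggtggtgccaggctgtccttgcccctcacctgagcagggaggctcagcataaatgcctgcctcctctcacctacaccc
In Saa3 the marked run is 1 C/EBP match that begins 99 bases before the start. Il6 holds 1 AP-1, 1 C/EBP and 1 NF-kappa-B match, which begin 249, 128 and 44 bases before the start. Mmp3 holds 1 C/EBP, 1 AP-1 and 1 TATA match, at 148, 46 and 7 bases. Saa1 and Saa2 each hold 1 C/EBP match, at 182 and 183 bases.

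Over all genes tested with a promoter in that table (13276), 7.98% held the C/EBP motif, 5.27% AP-1, 5.18% NF-kappa-B and 7.79% the TATA box. Among the 59 genes that passed at least 16-fold higher and had a promoter there, 16 (27.1%) held C/EBP, 9 (15.3%) AP-1, 4 (6.78%) NF-kappa-B and 12 (20.3%) the TATA box. Among the 264 at least 4-fold higher the shares were 15.5%, 14.4%, 8.71% and 14.4%. All 27025 promoters of that length held them in 9.55%, 6.87%, 4.603% and 12.97%. These shares are a description of letters, not of binding, and no test was made.

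Saa1 stood at 0.145, 0.436, 0.0772 and 0.0983 CPM in Co 1 to 4 and 13.01, 45.2, 74.4 and 6.401 CPM in LiTra 1 to 4 (log2 fold change 7.51 ± 1.13 (SE), edgeR adjusted p = 0.00119). Saa2 stood at 0.0725, 0.0409, 0 and 0.0983 CPM in Co 1 to 4 and 2.305, 11.9, 19.99 and 2.09 CPM in LiTra 1 to 4 (log2 fold change 7.38 ± 1.400 (SE), edgeR adjusted p = 0.00452, or 0.0538 in the 13 libraries and 0.0667 by voom). Both encode circulating serum amyloid A proteins, and since reads can be shared between these close copies their separate values are uncertain. All LiTra libraries lay above all Co libraries, with LiTra 2 and LiTra 3 the highest for both. Of 20 acute-phase and antimicrobial genes tested, 4 rose and 2 fell (median log2 fold change 0.44), against 6.83% of all genes higher and 5.62% lower. There was 1 fall without Co 1, LiTra 2 or LiTra 3. The fit of 13 libraries left 2 that rose and none that fell (median -0.15). The fourth to rise was Hp, the haemoglobin-binding haptoglobin (3.598 ± 0.66, edgeR adjusted p = 0.00375, or 0.0809 in the 13 libraries). Ltf, the iron-binding lactoferrin of secretions and neutrophil granules, fell, from 303, 435, 79.3 and 109 CPM in Co to 19.4, 1.68, 6.61 and 27.98 CPM in LiTra (log2 fold change -4.06 ± 0.88 (SE), edgeR adjusted p = 0.00938, or 0.0799 in the 13 libraries).

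Other genes with the largest rises were of varied function. Rln1, which encodes the hormone relaxin that loosens connective tissue, stood at 0.121, 1.17, 0.618 and 2.304 CPM in Co 1 to 4 and 36.6, 64.2, 75.3 and 9.98 CPM in LiTra 1 to 4, without overlap (log2 fold change 5.47 ± 1.03 (SE), edgeR adjusted p = 0.00429, and 4.47 with 0.0319 in the 13 libraries). Prnd, a prion-like gene, stood at 4.02, 0.463, 0 and 0 CPM in Co 1 to 4 and 36.01, 28.9, 29.1 and 25.99 CPM in LiTra 1 to 4, and the LiTra libraries were close to one another (log2 fold change 4.73 ± 1.41 (SE), edgeR adjusted p = 0.0398). Its call was lost without any 1 of Co 2, Co 3, Co 4, LiTra 1, LiTra 2 or LiTra 3 (edgeR adjusted p = 0.0582 to 0.102), with no expression filter (0.055) and in the 13 libraries (0.138). Stfa2l1, a protease inhibitor of the stefin family, was highest in LiTra 2 and LiTra 3, at 0.326, 0.776, 0.167 and 0 CPM in Co 1 to 4 and 1.81, 22.5, 19.5 and 1.72 CPM in LiTra 1 to 4 (log2 fold change 5.16 ± 1.15 (SE), edgeR adjusted p = 0.011, or 0.218 in the 13 libraries and 0.0519 by voom).

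Of 21 inflammatory cytokine genes 8 rose and none fell (median 1.57), and 2 rose in the 13 libraries. The number was 4 without Co 1, Co 3, Co 4 or LiTra 2 and 3 without LiTra 3. Il1b, the gene of the fever-inducing cytokine interleukin-1 beta, stood at 78.1, 117, 28.5 and 49.3 CPM in Co 1 to 4 and 307, 1359, 1008 and 364 CPM in LiTra 1 to 4. All LiTra libraries exceeded all controls, and LiTra 2 and LiTra 3 lay above LiTra 1 and LiTra 4 (log2 fold change 3.48 ± 0.56 (SE), edgeR adjusted p = 0.00172, and 2.29 with 0.0316 in the 13 libraries). Il24, a cytokine of the interleukin-10 family, stood at 0.254, 1.81, 0.0643 and 0 CPM in Co 1 to 4 and 26.5, 10.7, 18.7 and 16.8 CPM in LiTra 1 to 4, without overlap (log2 fold change 5.09 ± 1.21 (SE), edgeR adjusted p = 0.0148, or 0.0577 in the 13 libraries). Il17f, which encodes a cytokine of T cells at barriers that mobilises neutrophils, had 0 counts in every control library and 0.331, 1.04, 10.2 and 1.24 CPM in LiTra 1 to 4. Against a floor of 3 counts per control library its LiTra mean was at least 81.2-fold higher (edgeR adjusted p = 0.0185, 0.0523 without LiTra 3 and 0.105 in the 13 libraries). No fitted fold is given for it. LiTra 3 held most of these counts.

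Chemokines that draw monocytes rose. Ccl2, the main monocyte attractant, stood at 3.29, 4.07, 4.43 and 4.12 CPM in Co 1 to 4 and 91.4, 256, 203 and 122 CPM in LiTra 1 to 4 (log2 fold change 5.401 ± 0.91 (SE), edgeR adjusted p = 0.00224), and Ccl9, a chemokine made by macrophages and osteoclasts, at 20.95, 37.7, 67.2 and 63.5 CPM in Co 1 to 4 and 343, 585, 633 and 361 CPM in LiTra 1 to 4 (log2 fold change 3.34 ± 0.45 (SE), edgeR adjusted p = 0.000761). Neither overlapped between groups. Ccl3 and Ccl4, related inflammatory chemokines, rose by 4.69 ± 0.69 and 4.48 ± 0.72 on the log2 scale, and Ccr1, a receptor for Ccl3, by 2.56 ± 0.37. In each of the 5, the call was kept with any 1 library left out and in the 13 libraries. Of 27 genes in this list 8 rose and 2 fell (median 0.80), 6 and 0 in the 13 libraries. The 2 that fell were Ccl21a, a lymphatic chemokine that guides dendritic cells, and Cxcl12, a stromal chemokine that retains blood-forming cells. Ccl21a stood at 29.7, 35.1, 5.62 and 1.55 CPM in Co 1 to 4 and 1.89, 0.149, 0.0197 and 0.0461 CPM in LiTra 1 to 4 (log2 fold change -5.04 ± 1.23 (SE), edgeR adjusted p = 0.0167, 0.0592 without LiTra 2, 0.0518 without LiTra 3, 0.245 by voom and 0.156 in the 13 libraries). LiTra 1 lay within the control range. Reads of Ccl21a can be shared with its copies. Cxcl12 changed by -1.25 ± 0.34 (edgeR adjusted p = 0.0274), and its call was lost without Co 1 (0.0932), Co 4 (0.0557), LiTra 2 (0.0828) or LiTra 3 (0.0559), with the length trend removed (0.0606) and in the 13 libraries (0.156).

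Mature neutrophil genes were higher in LiTra. Of 18 tested 16 rose and none fell, with a median log2 fold change of 2.79. There was no overlap between groups in 14, against 21.2% of all genes tested. The 13 libraries left 4 (median 1.87), and with 1 library left out the number was between 12 and 16. The list score, a mean log2 CPM of members around the mean of all libraries, was -3.20 to -1.05 in Co and 0.219, 2.06, 1.73 and 0.387 in LiTra 1 to 4. It was thus highest in the 2 libraries shifted to short transcripts. With the trend on transcript length removed, 14 of the 18 rose (median 2.70491). Clec4d, a receptor for mycobacterial glycolipids on neutrophils and macrophages, stood at 2.900, 4.86, 2.64 and 4.298 CPM in Co 1 to 4 and 27.2, 166, 113 and 28.1 CPM in LiTra 1 to 4 (log2 fold change 4.51 ± 0.68 (SE), edgeR adjusted p = 0.00122, and 2.91 with 0.00657 in the 13 libraries). Its partner Clec4e rose by 3.67 ± 0.51 and the decoy receptor Il1r2 by 3.09 ± 0.48 on the log2 scale, both also called in the 13 libraries. Retnlg, a resistin-like gene of neutrophils, stood at 4.13, 10.8, 4.44 and 7.92 CPM in Co 1 to 4 and 26.4, 278, 129 and 28.6 CPM in LiTra 1 to 4 (log2 fold change 4.08 ± 0.71 (SE), edgeR adjusted p = 0.00281, and 2.005 with 0.026 in the 13 libraries). Mmp8, the neutrophil collagenase, rose by 2.26 ± 0.51 (edgeR adjusted p = 0.0116), and by 1.496 without passing in the 13 libraries (0.116). Of 11 genes of granule-forming marrow precursors, none passed higher and 1, Ltf, passed lower (median -0.95). Without Co 4, 1 passed higher. The list score was -0.84, 0.71, -0.72 and 3.99 in Co 1 to 4. In LiTra 1 to 4 it was 2.32, -0.22, -0.07 and -1.16, so the groups overlapped and Co 4 was the highest library. Their summed level was 86.7 to 455 CPM in Co and 35.6 to 98.002 CPM in LiTra. Most of that sum in Co 1 to 3 was Ltf.

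Macrophage genes split. Of 24 monocyte and macrophage genes 4 rose and 3 fell (median 0.50), 2 and 2 in the 13 libraries, with rises in 2 without Co 2, Co 3 or LiTra 3. Cd68, a lysosomal protein of macrophages and osteoclasts, stood at 37.2, 86.4, 83.1 and 83.9 CPM in Co 1 to 4 and 328, 289, 378 and 331 CPM in LiTra 1 to 4 (log2 fold change 2.19 ± 0.32 (SE), edgeR adjusted p = 0.00107), and Cd14, the co-receptor for bacterial lipopolysaccharide, at 65.96, 50.05, 34.5 and 35.5 CPM in Co 1 to 4 and 178, 496, 444 and 161 CPM in LiTra 1 to 4 (log2 fold change 2.78 ± 0.42 (SE), edgeR adjusted p = 0.00128). Both were without overlap. Cd163, the haemoglobin scavenger receptor of resident macrophages, went down, at 25.9, 28.1, 21.1 and 28.4 CPM in Co 1 to 4 and 4.403, 1.85, 3.79 and 2.43 CPM in LiTra 1 to 4. The LiTra libraries all lay under the lowest control (log2 fold change -3.05 ± 0.43 (SE), edgeR adjusted p = 0.000924, and -2.93 with 0.00844 in the 13 libraries). Mrc1, the mannose receptor of resident macrophages, changed by -1.802 ± 0.31 (edgeR adjusted p = 0.00242) and was also called in the 13 libraries. Lyve1, another member of this list, went the opposite way to Cd163 and Mrc1. It stood at 1.29 to 2.37 CPM in Co and 3.88 to 10.1 CPM in LiTra, without overlap (log2 fold change 1.51 ± 0.40 (SE), edgeR adjusted p = 0.025, or 0.235 in the 13 libraries). Adgre1, which encodes F4/80, changed by -1.21 ± 0.34 (edgeR adjusted p = 0.0328). That call was lost without any 1 of Co 2, Co 3, Co 4, LiTra 1, LiTra 2 or LiTra 3 (edgeR adjusted p = 0.0571 to 0.0926) and in the 13 libraries (0.0804). Cd74, the chaperone of MHC class II, stood at 353, 559.8, 483 and 579 CPM in Co 1 to 4 and 223, 207, 160.3 and 138 CPM in LiTra 1 to 4, without overlap (log2 fold change -1.44 ± 0.22 (SE), edgeR adjusted p = 0.00129), and kept its call in the 13 libraries (0.0139). In the antigen presentation list of 18 genes, 4 rose and 2 fell, or 4 and 4 with the length trend removed, and there was no rise without LiTra 2, without LiTra 3 or in the 13 libraries.

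Osteoclast genes rose. Of 17 tested 10 rose and none fell (median 1.69), and in the 13 libraries 11 rose (median 2.02). With 1 library left out the number was 8 to 10. The list score was -1.57 to -0.457 in Co and 0.543 to 1.35 in LiTra, and here LiTra 2 and LiTra 3 lay with LiTra 1 and LiTra 4. Acp5 (ENSMUSG00000001348.16), tartrate-resistant acid phosphatase, stood at 152, 462, 741 and 667 CPM in Co 1 to 4 and 2061, 2189.9, 2525 and 2582 CPM in LiTra 1 to 4 (log2 fold change 2.21 ± 0.45 (SE), edgeR adjusted p = 0.00714). Ctsk (ENSMUSG00000028111.5), the protease that degrades bone collagen, stood at 572, 1712, 2794 and 2342 CPM in Co 1 to 4 and 6427, 6604, 7988 and 7736 CPM in LiTra 1 to 4 (log2 fold change 1.95 ± 0.396 (SE), edgeR adjusted p = 0.00663). For both genes Co 1 was the lowest library and the groups did not overlap. In the 13 libraries Acp5 rose by 2.19 (0.0465) and Ctsk by 1.93 (0.0468). Tcirg1, a subunit of the proton pump that acidifies the resorption pit, stood at 17.99, 32.7, 33.5 and 35.1 CPM in Co 1 to 4 and 105, 99.1, 137 and 157 CPM in LiTra 1 to 4 (log2 fold change 2.06 ± 0.27 (SE), edgeR adjusted p = 0.000554). Dcstamp and Ocstamp, needed for the fusion of precursors into osteoclasts, rose by 2.59 ± 0.47 and 2.69 ± 0.395, and Mmp9, a gelatinase of osteoclasts, by 1.69 ± 0.33. Each of these calls was kept with any 1 library left out and in the 13 libraries.

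The ligands and receptors that steer osteoclasts moved less uniformly. Of 19, 6 rose and 1 fell (median 0.26), 3 and 1 in the 13 libraries. 3 rose without Co 1, Co 3, Co 4, LiTra 2 or LiTra 3. Tnfsf11 (ENSMUSG00000022015.9), which encodes RANKL, stood at 2.56, 18.96, 17.1 and 37.5 CPM in Co 1 to 4 and 87.8, 88.4, 103 and 82.7 CPM in LiTra 1 to 4. All LiTra libraries exceeded the highest control, Co 4, but the gene did not pass (log2 fold change 2.25 ± 0.75 (SE), edgeR adjusted p = 0.0601). Its decoy receptor Tnfrsf11b (ENSMUSG00000063727.4), osteoprotegerin, stood at 174, 332, 242 and 317 CPM in Co 1 to 4 and 158, 214, 121 and 413 CPM in LiTra 1 to 4, with overlapping groups (log2 fold change -0.23 ± 0.39 (SE), edgeR adjusted p = 0.727, 95% interval -1.06 to 0.59). Ptgs2, the inducible cyclooxygenase that makes the prostaglandin precursor, stood at 17.4, 26.2, 6.86 and 17.00 CPM in Co 1 to 4 and 185, 184, 88.4 and 146 CPM in LiTra 1 to 4 (log2 fold change 3.16 ± 0.57 (SE), edgeR adjusted p = 0.00326), without overlap. Il34, an alternative ligand of the colony-stimulating factor 1 receptor, was the member that fell, at 37.96, 47.9, 53.6 and 51.5 CPM in Co 1 to 4 and 15.6, 12.2, 9.92 and 10.5 CPM in LiTra 1 to 4 (log2 fold change -1.99 ± 0.24 (SE), edgeR adjusted p = 0.000406). Both were called in the 13 libraries, at 0.0135 for Ptgs2 and 0.00497 for Il34.

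**Figure D2:**
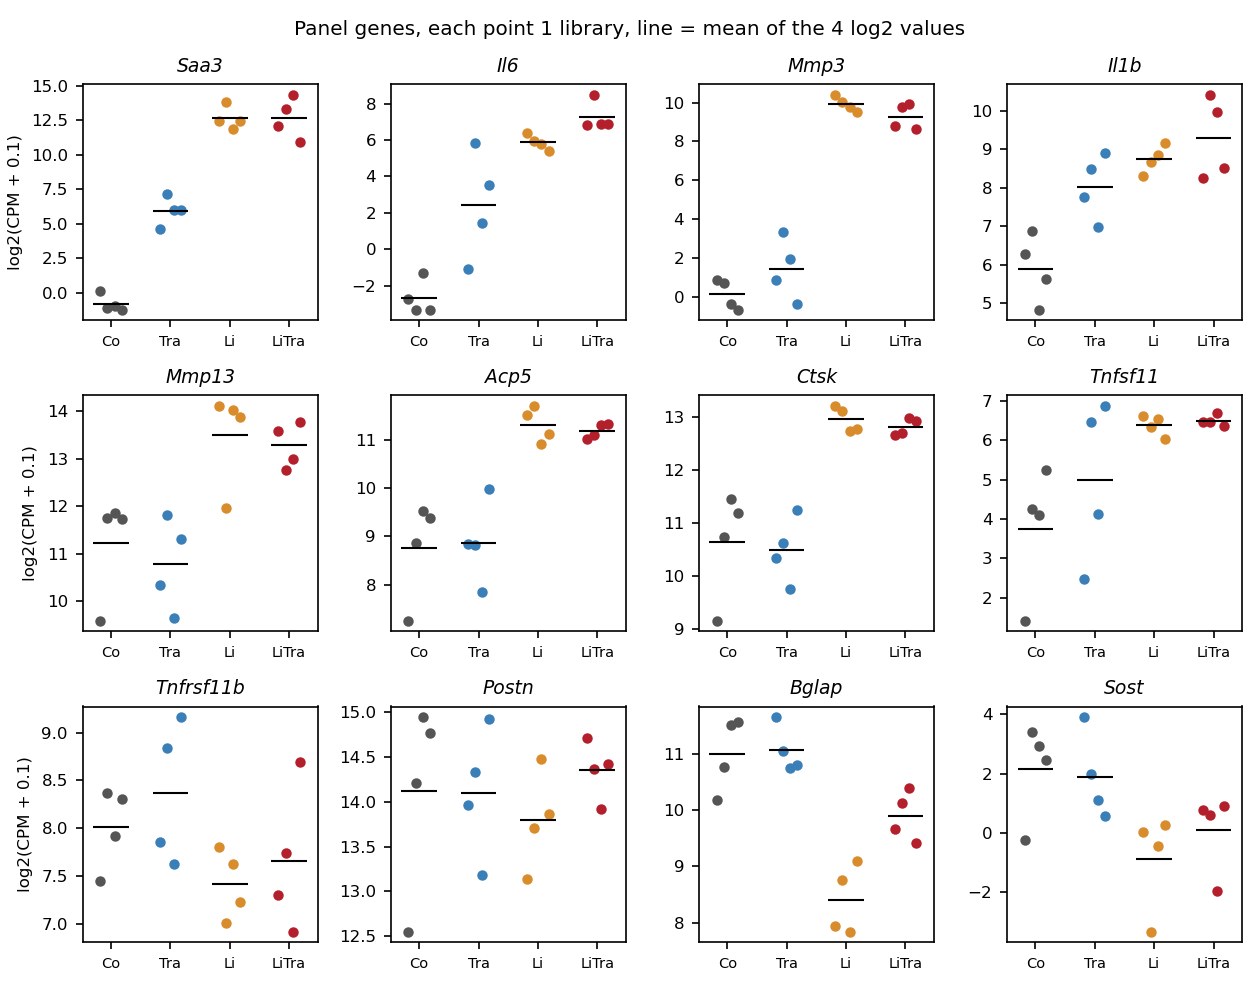
Level of 12 genes as log2(CPM + 0.1) (vertical axis) in the 4 groups (horizontal axis: control, trauma, ligature, ligature plus trauma), each point 1 library and each line the mean of 4. The LiTra points lie above all Co points for Saa3, Il6, Mmp3, Il1b, Mmp13, Acp5, Ctsk and Tnfsf11, overlap them for Tnfrsf11b, Postn and Sost, and lie near or below the lowest Co points for Bglap.

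Bone-forming genes fell. Of 18 osteoblast genes 9 fell and none rose (median -0.88). Only 2 fell in the 13 libraries (median -0.81), and the number was 4 without Co 3 or LiTra 3, 3 without Co 4 or LiTra 2, and 6 without LiTra 1 or LiTra 4. Bglap (ENSMUSG00000074483.3), which encodes osteocalcin, stood at 1161, 1751, 2928 and 3049 CPM in Co 1 to 4 and 812, 1115, 1348 and 686 CPM in LiTra 1 to 4. LiTra 3 lay above Co 1 and the other LiTra libraries lay under every control, and the fall only just passed (log2 fold change -1.17 ± 0.36 (SE), edgeR adjusted p = 0.0464). It was lost without any 1 of the 8 libraries other than Co 1 (edgeR adjusted p = 0.0626 to 0.126), with no expression filter (0.0633), with only the compared groups fitted (0.0537), with DESeq2 size factors (0.051) and in the 13 libraries (0.0877). Its near-identical copy Bglap2, whose reads may be shared with it, changed by -1.39 ± 0.37 (edgeR adjusted p = 0.0254). That call was lost without Co 3 (0.0677), Co 4 (0.0631), LiTra 1 (0.0546), LiTra 2 (0.06) or LiTra 4 (0.0544). Smpd3, a sphingomyelinase needed for mineralisation, stood at 52.2, 104, 80.3 and 99.8 CPM in Co 1 to 4 and 8.07, 3.43, 7.66 and 20.5 CPM in LiTra 1 to 4, without overlap (log2 fold change -3.08 ± 0.56 (SE), edgeR adjusted p = 0.00348, or 0.0559 in the 13 libraries). Dlx6, a homeobox factor of skeletal development, is counted in the odontoblast and pulp list and not among these 18. It stood at 6.07, 6.96, 6.97 and 9.27 CPM in Co 1 to 4 and 1.84, 1.71, 2.703 and 2.78 CPM in LiTra 1 to 4 (log2 fold change -1.696 ± 0.32 (SE), edgeR adjusted p = 0.00399), also without overlap and called in the 13 libraries. Sost (ENSMUSG00000001494.7), which encodes the Wnt inhibitor sclerostin of osteocytes, stood at 0.749, 10.5, 7.49 and 5.41 CPM in Co 1 to 4 and 1.61, 1.44, 0.158 and 1.77 CPM in LiTra 1 to 4 and did not pass (log2 fold change -2.27 ± 1.03 (SE), edgeR adjusted p = 0.148). None of 10 osteocyte genes passed (median -0.55).

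Most ligament fibroblast genes did not pass. Of 21 in the list 3 fell and 1 rose (median -0.60). Over all genes tested 5.62% fell and 6.83% rose, so the share that fell was above that of all genes. In the 13 libraries 1 fell and 1 rose. The number that fell was 1 without LiTra 2 or LiTra 3 and 5 without LiTra 1. Postn (ENSMUSG00000027750.17) did not pass (0.02 ± 0.45, edgeR adjusted p = 0.986, 95% interval -0.93 to 0.96). Thbs4, a matrix protein of tendons and ligaments, stood at 811, 850.2, 1099 and 1120.0 CPM in Co 1 to 4 and 249, 112, 129 and 171 CPM in LiTra 1 to 4, far apart in the 2 groups (log2 fold change -2.55 ± 0.36 (SE), edgeR adjusted p = 0.000866), and was also called in the 13 libraries (0.0192). Tnmd, the tendon membrane protein tenomodulin, fell by 1.201 ± 0.296 on the log2 scale (edgeR adjusted p = 0.0177). It lost its call without LiTra 2 (0.0557) or LiTra 3 (0.0597) and in the 13 libraries (0.107).

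Collagen chains changed in both directions. Of 28 chains 6 rose and 5 fell (median -0.41), 5 and 2 in the 13 libraries, and 4 rose without Co 4. Col1a1 (ENSMUSG00000001506.11), the main chain of type I collagen in bone and ligament, stood at 11629.7, 11921, 10286 and 13543 CPM in Co 1 to 4 and 4255, 3617, 3153 and 5068 CPM in LiTra 1 to 4. The highest LiTra library lay under the lowest control (log2 fold change -1.56 ± 0.26 (SE), edgeR adjusted p = 0.00197, and -1.35 with 0.00987 in the 13 libraries). Its partner Col1a2 changed by -1.27 ± 0.25 (edgeR adjusted p = 0.00601, or 0.0532 in the 13 libraries). Col16a1, a fibril-associated chain, stood at 283, 506, 483 and 532 CPM in Co 1 to 4 and 129, 111, 93.6 and 146 CPM in LiTra 1 to 4 (log2 fold change -1.91 ± 0.31 (SE), edgeR adjusted p = 0.00193). Col12a1, another fibril-associated chain of the ligament, stood at 645, 937, 926 and 997 CPM in Co 1 to 4 and 2658, 1829.9, 1911 and 1509 CPM in LiTra 1 to 4 (log2 fold change 1.17 ± 0.25 (SE), edgeR adjusted p = 0.00872). Col18a1, a chain of the basement membrane under vessels and epithelium, stood at 38.5, 37.6, 22.7 and 26.9 CPM in Co 1 to 4 and 91.2, 99.6, 98.1 and 138 CPM in LiTra 1 to 4 (log2 fold change 1.76 ± 0.302 (SE), edgeR adjusted p = 0.00242). None of these 3 overlapped, and each kept its call with any 1 library left out and in the 13 libraries.

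Matrix proteases rose more than they fell. Of 18 matrix metalloproteinases 6 rose and 1 fell, with a median of -0.01, 3 and 0 in the 13 libraries, and 4 rose without any 1 of the 8 libraries. Mmp13 (ENSMUSG00000050578.11), a collagenase of bone and ligament cells, stood at 772, 3439, 3735 and 3395 CPM in Co 1 to 4 and 12204, 6912, 8175 and 14068 CPM in LiTra 1 to 4. The groups did not overlap, but Co 1 was far under the other controls and the call was marginal (log2 fold change 1.87 ± 0.55 (SE), edgeR adjusted p = 0.0394). It was lost without any 1 of the 8 libraries (edgeR adjusted p = 0.056 to 0.0903), with no expression filter (0.0589) and in the 13 libraries (0.0523). Mmp19, which cleaves basement membrane, stood at 40.7, 63.5, 40.5 and 54.1 CPM in Co 1 to 4 and 178, 120.3, 136 and 224 CPM in LiTra 1 to 4 (log2 fold change 1.73 ± 0.38 (SE), edgeR adjusted p = 0.01). Timp1, an inhibitor of metalloproteinases induced in inflammation, stood at 39.6, 92.1, 152 and 119 CPM in Co 1 to 4 and 1008, 1396, 2555 and 676 CPM in LiTra 1 to 4, without overlap (log2 fold change 3.81 ± 0.59 (SE), edgeR adjusted p = 0.00153, and 3.06 with 0.00681 in the 13 libraries). Timp3, the inhibitor held in the matrix, fell by 1.405 ± 0.33 on the log2 scale (edgeR adjusted p = 0.013), and Reck, a membrane-bound inhibitor, by 1.504 ± 0.32 (edgeR adjusted p = 0.00872). Neither passed in the 13 libraries (0.112 and 0.0593).

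Growth factor and signalling genes were mixed. Over all genes tested 6.83% rose and 5.62% fell. Fgf7 (ENSMUSG00000027208.15), a fibroblast growth factor that acts on epithelium, had the lowest p of all genes, at 26.7, 31.9, 24.98 and 33.2 CPM in Co 1 to 4 and 464, 339, 312 and 242 CPM in LiTra 1 to 4. All LiTra libraries lay far above the highest control (log2 fold change 3.54 ± 0.22 (SE), edgeR adjusted p = 6.77e-07, and 3.59 with 1.91e-05 in the 13 libraries). Of 27 Wnt pathway genes 5 fell and 1 rose (median -0.64), 1 and 1 in the 13 libraries. The member that rose was Sfrp4, a secreted Wnt antagonist, at 103, 248, 230.3 and 214 CPM in Co 1 to 4 and 1580.1, 1426, 2033 and 1487 CPM in LiTra 1 to 4 (log2 fold change 3.04 ± 0.46 (SE), edgeR adjusted p = 0.00123). Another antagonist, Frzb, stood at 19.6, 38.6, 36.8 and 40.5 CPM in Co 1 to 4 and 11.5, 7.18, 5.41 and 7.83 CPM in LiTra 1 to 4 (log2 fold change -2.08 ± 0.401 (SE), edgeR adjusted p = 0.00489, or 0.0808 in the 13 libraries), so the 2 went opposite ways. The ligand gene Wnt11 fell by 1.74 ± 0.36 and was called in the 13 libraries too. Of 26 TGF-beta and BMP genes 4 fell and 2 rose (median -0.13), 3 and 2 in the 13 libraries. With all libraries the share that rose was near that of all genes. Tgfb2, a transforming growth factor ligand, stood at 137, 80.7, 103 and 118 CPM in Co 1 to 4 and 39.5, 33.3, 28.3 and 43.8 CPM in LiTra 1 to 4 (log2 fold change -1.598 ± 0.23 (SE), edgeR adjusted p = 0.000971), and Bmp3, a ligand that restrains bone formation, at 249.9, 309.9, 289.6 and 369 CPM in Co 1 to 4 and 121, 62.3, 51.2 and 120.2 CPM in LiTra 1 to 4 (log2 fold change -1.78 ± 0.34 (SE), edgeR adjusted p = 0.00465). Inhba, which encodes the activin A subunit, stood at 28.2, 45.8, 35.2 and 32.9 CPM in Co 1 to 4 and 225, 132, 171 and 202 CPM in LiTra 1 to 4 (log2 fold change 2.36 ± 0.47 (SE), edgeR adjusted p = 0.00615), and Bmp5 rose by 1.495 ± 0.28. All 4 kept their calls in the 13 libraries.

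Endothelial and dividing-cell genes rose. Of 24 endothelial genes 14 rose and none fell (median 1.04). 11 rose in the 13 libraries (median 1.16), and with 1 library left out 12 or 13 did. The list score was -1.03 to -0.574 in Co and 0.605 to 0.729 in LiTra. Selp, the P-selectin that slows leukocytes on the vessel wall, stood at 11.6, 27.8, 9.63 and 13.8 CPM in Co 1 to 4 and 531, 317, 192 and 324 CPM in LiTra 1 to 4 (log2 fold change 4.44 ± 0.62 (SE), edgeR adjusted p = 0.000866). Ackr1, the chemokine receptor of venules, stood at 9.12, 9.55, 5.56 and 4.804 CPM in Co 1 to 4 and 81.00, 137, 93.3 and 61.03 CPM in LiTra 1 to 4 (log2 fold change 3.68 ± 0.53 (SE), edgeR adjusted p = 0.00103). Mcam, an adhesion molecule of endothelium and pericytes given in the pericyte list, stood at 15.1, 15.8, 16.6 and 18.2 CPM in Co 1 to 4 and 85.3, 79.1, 88.8 and 79.8 CPM in LiTra 1 to 4, tight in both groups (log2 fold change 2.34 ± 0.18 (SE), edgeR adjusted p = 5.08e-06). Among 24 DNA replication genes 14 rose and none fell (median 1.10), 7 in the 13 libraries, 9 without LiTra 2 and 8 without LiTra 3. Tyms, the thymidylate synthase, stood at 13.5, 14.7, 15.96 and 15.2 CPM in Co 1 to 4 and 39.4, 70.7, 81.2 and 45.6 CPM in LiTra 1 to 4 (log2 fold change 1.998 ± 0.32 (SE), edgeR adjusted p = 0.00165). Among 20 mitosis genes 10 rose and none fell (median 1.27), 9 in the 13 libraries (median 1.44) and 17 with the length trend removed (median 1.48). Cdk1, the kinase that starts mitosis, stood at 12.05, 21.03, 12.5 and 10.96 CPM in Co 1 to 4 and 53.4, 87.4, 91.8 and 64.6 CPM in LiTra 1 to 4 (log2 fold change 2.39 ± 0.37 (SE), edgeR adjusted p = 0.00153), and Nuf2, a kinetochore protein, at 4.64, 6.496, 6.29 and 6.096 CPM in Co 1 to 4 and 19.5, 16.1, 17.5 and 24.2 CPM in LiTra 1 to 4 (log2 fold change 1.72 ± 0.298 (SE), edgeR adjusted p = 0.00265). All of these named genes were without overlap and kept their calls in the 13 libraries.

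**Figure D3:**
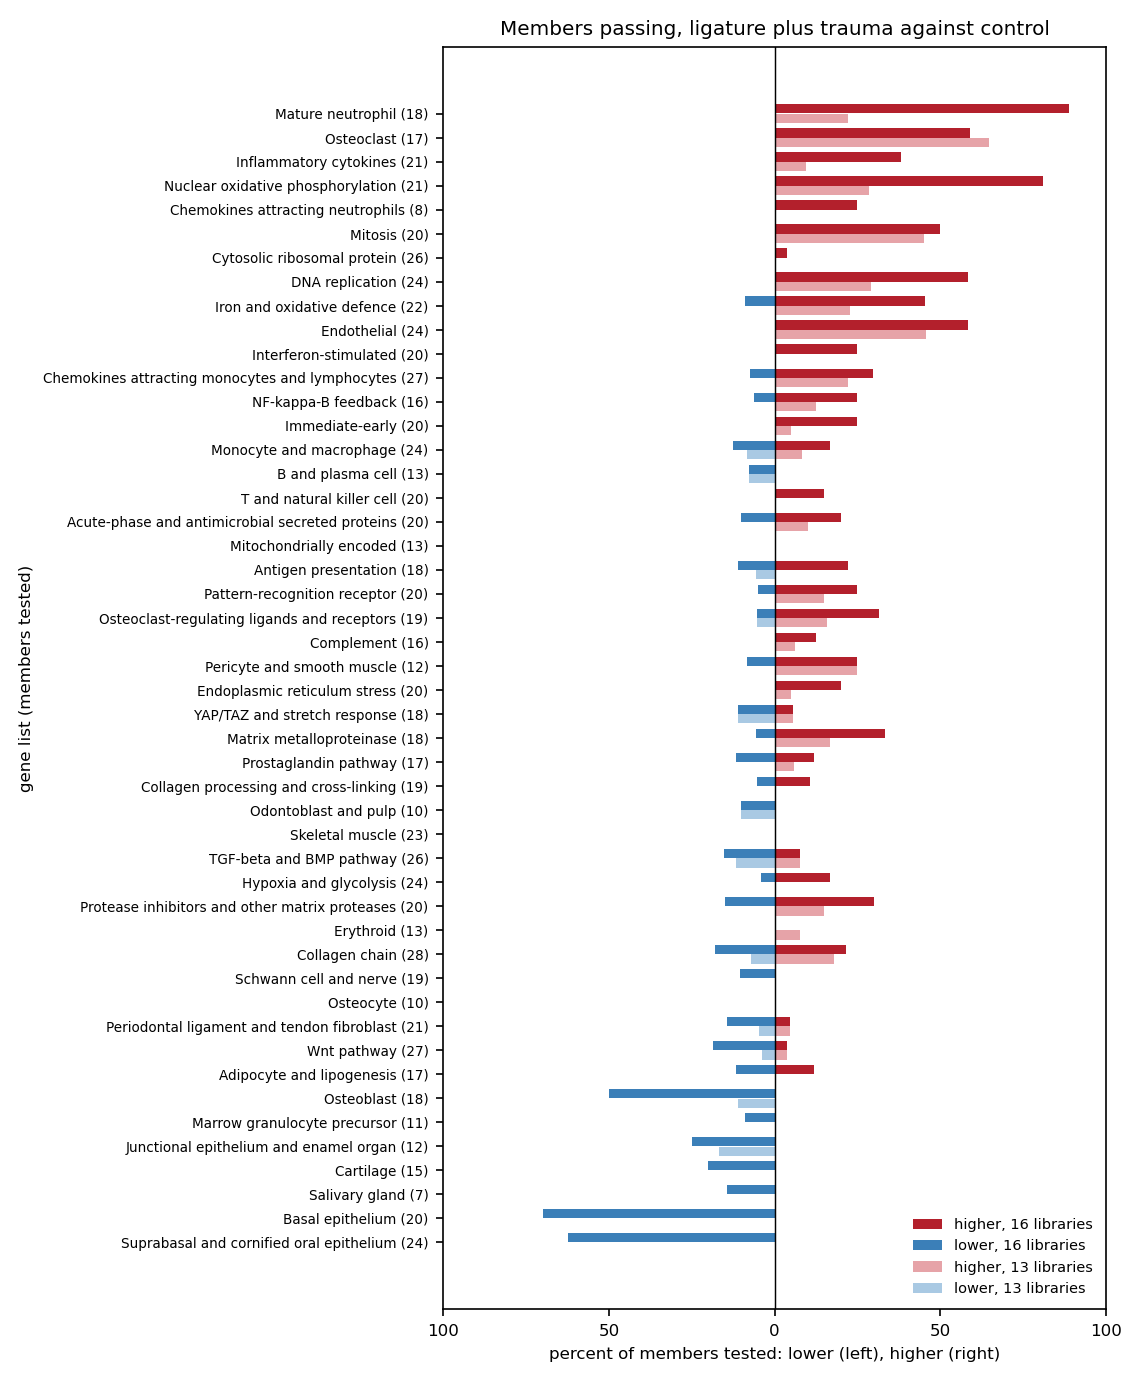
Percent of the members tested in each of 48 gene lists that passed higher (right) or lower (left) in LiTra against Co, with the number tested in brackets; dark bars are from all 16 libraries and light bars from the 13 libraries. Osteoclast, mitosis and endothelial bars are of similar length in both fits, while those of mature neutrophil, oxidative phosphorylation and epithelial genes shrink or vanish in the 13 libraries.

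Epithelial genes were lower in LiTra. Of 24 suprabasal and cornified genes 15 fell and none rose (median -4.11), and of 20 basal genes 14 fell (median -2.22). None of either list passed in the 13 libraries, with medians of -3.95 and -1.81. The number of suprabasal genes lower was 8 without Co 1, 4 without Co 2, LiTra 2 or LiTra 3 and 9 without LiTra 4, and that of basal genes 5 without Co 1, Co 2, LiTra 2 or LiTra 3 and 9 without LiTra 4. The suprabasal score was 2.25, 4.25, 0.652 and -1.23 in Co 1 to 4, and -2.71 to -0.728 in LiTra, so Co 4 lay within the LiTra range. Krt1, a keratin of the upper layers, stood at 24.8, 490.1, 9.72 and 2.22 CPM in Co 1 to 4 and 0.414, 0.0932, 0.0592 and 0 CPM in LiTra 1 to 4 (log2 fold change -9.77 ± 2.02 (SE), edgeR adjusted p = 0.00759). Co 2 was far above the other controls, and every LiTra library lay under the lowest control. Dsp, the desmosome protein desmoplakin, stood at 312, 259.6, 88.9 and 51.1 CPM in Co 1 to 4 and 48.2, 13.1, 22.1 and 23.6 CPM in LiTra 1 to 4 (log2 fold change -2.73 ± 0.61 (SE), edgeR adjusted p = 0.0112). Neither was called in the 13 libraries (0.115 for Krt1 and 0.145 for Dsp), nor was Krt1 by voom (0.375). Lyg1, a lysozyme-like gene, had no count in LiTra and 0.3504, 42.5, 0.669 and 0.716 CPM in Co 1 to 4. Against 3 counts per LiTra library it was at least 219-fold lower, a bound carried by Co 2, and its call was lost by voom (0.236), without LiTra 2 (0.0685) or LiTra 3 (0.0699) and in the 13 libraries (0.154). Bpifb1, a secreted protein of mucosal surfaces, was far highest in Co 1, at 1577, 13.99, 1.31 and 0.716 CPM in Co 1 to 4 and 0.0966, 0.485, 0.454 and 0 CPM in LiTra 1 to 4 (log2 fold change -10.64 ± 2.42 (SE), edgeR adjusted p = 0.012). Without Co 1 it no longer passed (0.0955), nor in the 13 libraries (0.0988) or by voom (0.384). Odam, a gene of the junctional epithelium that attaches gum to tooth, was steadier, at 5713, 4223, 2218 and 1313 CPM in Co 1 to 4 and 406, 479, 379 and 429 CPM in LiTra 1 to 4 (log2 fold change -2.99 ± 0.48 (SE), edgeR adjusted p = 0.00159, and -3.02 with 0.0322 in the 13 libraries). Il12rb2, a chain of the interleukin-12 receptor, was also without counts in LiTra, against 1.305, 1.16, 1.51 and 1.700 CPM in Co 1 to 4 (edgeR adjusted p = 0.00157). How far the amount of epithelium in each sample takes part in these differences was not tested.

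Genes of oxidative phosphorylation rose, with LiTra 2 and LiTra 3 weighing on the count. Of 21 nuclear genes of oxidative phosphorylation 17 rose and none fell (median 1.5015). Only 6 rose without LiTra 2, LiTra 3 and Li 2 (median 0.65), and the number was 6 without Co 1 or Co 2, 7 without Co 4, 5 without LiTra 2 and 4 without LiTra 3. After the trend with transcript length was taken out 16 rose (median 1.06). Cox5a, a subunit of cytochrome c oxidase, stood at 69.3, 78.9, 94.00 and 70.7 CPM in Co 1 to 4 and 207, 318, 412 and 149 CPM in LiTra 1 to 4 (log2 fold change 1.79 ± 0.35 (SE), edgeR adjusted p = 0.00489, and 1.18 with 0.0258 in the 13 libraries). Of 26 cytosolic ribosomal protein genes 1 passed, with a median of 1.12, or 0.21 in the 13 libraries and 0.66 with the length trend removed. It was 3 without LiTra 1, 5 without LiTra 4 and 0 without any 1 of the other libraries. Rplp1, one of them, stood at 80.9, 116, 232 and 135 CPM in Co 1 to 4 and 192, 775, 930.4 and 164 CPM in LiTra 1 to 4 and did not pass (log2 fold change 1.87 ± 0.68 (SE), edgeR adjusted p = 0.0803). The excess was in LiTra 2 and LiTra 3, and LiTra 1 and LiTra 4 lay within the control range. Their summed level was 5767 to 12712 CPM in Co, 9665 and 9887 CPM in LiTra 1 and LiTra 4 and 23412 and 27727 CPM in LiTra 2 and LiTra 3. None of 13 genes encoded by mitochondrial DNA passed (median 0.35). In the iron and oxidative defence list of 22 genes 10 rose and 2 fell (median 1.06), 5 and 0 in the 13 libraries, 6 without Co 1 or LiTra 2 and 5 without Co 2 or LiTra 3. Sod2, the mitochondrial superoxide dismutase, stood at 72.4, 70.8, 65.6 and 51.6 CPM in Co 1 to 4 and 238, 296, 395 and 171 CPM in LiTra 1 to 4 (log2 fold change 2.08 ± 0.35 (SE), edgeR adjusted p = 0.00235). Fth1, the heavy chain of the iron store ferritin, stood at 3122, 3200.0, 3017 and 3199 CPM in Co 1 to 4 and 9126, 11524, 11780.2 and 5240.2 CPM in LiTra 1 to 4 (log2 fold change 1.59 ± 0.34 (SE), edgeR adjusted p = 0.00876). Both were without overlap and kept their calls in the 13 libraries.

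Genes that respond to stretch passed in about the share of all genes. Of 18 YAP/TAZ and stretch-response genes 1 rose and 2 fell, with a median of 0.01, against 12.5% of all genes either way. The 13 libraries gave 1 and 2 as well, and the fit with the length trend removed 2 and 3. The member that rose was Acta2, at 13.2 to 29.6 CPM in Co and 118 to 135 CPM in LiTra (log2 fold change 2.39 ± 0.47 (SE), edgeR adjusted p = 0.00585, and 0.00902 in the 13 libraries). Ajuba, an adaptor protein of the Hippo pathway, was one that fell, at 37.7, 25.4, 17.3 and 12.8 CPM in Co 1 to 4 and 5.77, 7.74, 5.21 and 4.94 CPM in LiTra 1 to 4 (log2 fold change -1.98 ± 0.46 (SE), edgeR adjusted p = 0.013). Of 20 immediate-early genes, which respond within minutes to many stimuli, 5 rose and none fell (median 0.57). The number was 1 in the 13 libraries and without LiTra 2, 3 without Co 1, Co 2 or Co 4 and 2 without Co 3. Fos stood at 54.1, 52.4, 67.7 and 55.3 CPM in Co 1 to 4 and 158, 296, 111 and 223 CPM in LiTra 1 to 4 (log2 fold change 1.78 ± 0.39 (SE), edgeR adjusted p = 0.00929). Of 20 interferon-stimulated genes 5 rose (median 0.81), 1 without Co 3 or LiTra 2, 2 without Co 2, 3 without Co 4, and none without LiTra 3 or in the 13 libraries. Among 24 hypoxia and glycolysis genes 4 rose and 1 fell (median -0.16), against 6.83% of all genes higher and 5.62% lower. None passed in the 13 libraries, and 1 rose without Co 1, Co 2 or LiTra 2, 2 without Co 3 and none without Co 4 or LiTra 3. No skeletal muscle gene passed of 23 tested, and no erythroid gene of 13 (1 in the 13 libraries).

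Smaller counts came from the other lists. Over all genes tested 12.5% passed either way, 6.83% higher and 5.62% lower. Several counts below lie near these shares, so they are a description and not a result about the list. In immune signalling, 5 of 20 pattern-recognition receptors rose and 1 fell (3 and 0 in the 13 libraries), and 4 of 16 NF-kappa-B feedback genes rose and 1 fell (2 and 0). Of 8 chemokines that attract neutrophils 2 rose, none in the 13 libraries and 4 without LiTra 4. Of 16 complement genes 2 rose, 1 in the 13 libraries and 4 with the length trend removed. Of 20 T and natural killer cell genes 3 rose, none without Co 1, Co 4, LiTra 2 or LiTra 3 or in the 13 libraries, and of 13 B and plasma cell genes 1 fell. Of 17 prostaglandin pathway genes 2 rose and 2 fell (1 and 0 in the 13 libraries, 2 and 0 with the length trend removed). Of 20 endoplasmic reticulum stress genes 4 rose, 1 in the 13 libraries, without Co 4 or without LiTra 3. In the matrix, 2 of 19 collagen-processing genes rose and 1 fell, and none passed without Co 1 or in the 13 libraries. With the length trend removed 4 of them rose. Of 20 protease inhibitors and other matrix proteases 6 rose and 3 fell (3 and 0 in the 13 libraries). Of 12 pericyte and smooth muscle genes 3 rose and 1 fell (3 and 0). Among neighbouring tissues, 3 of 12 junctional epithelium and enamel organ genes fell (2 in the 13 libraries), as did 1 of 10 odontoblast genes (Dlx6, given above) and 1 of 7 salivary gland genes. Of 15 cartilage genes 3 fell, none in the 13 libraries, 1 without Co 4 or LiTra 3 and 5 without LiTra 4. Of 19 Schwann cell and nerve genes 2 fell, none without Co 1, LiTra 2 or LiTra 3 or in the 13 libraries. Of 17 adipocyte genes 2 rose and 2 fell, none of them without LiTra 3, without Co 2 or in the 13 libraries.

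**Figure D4:**
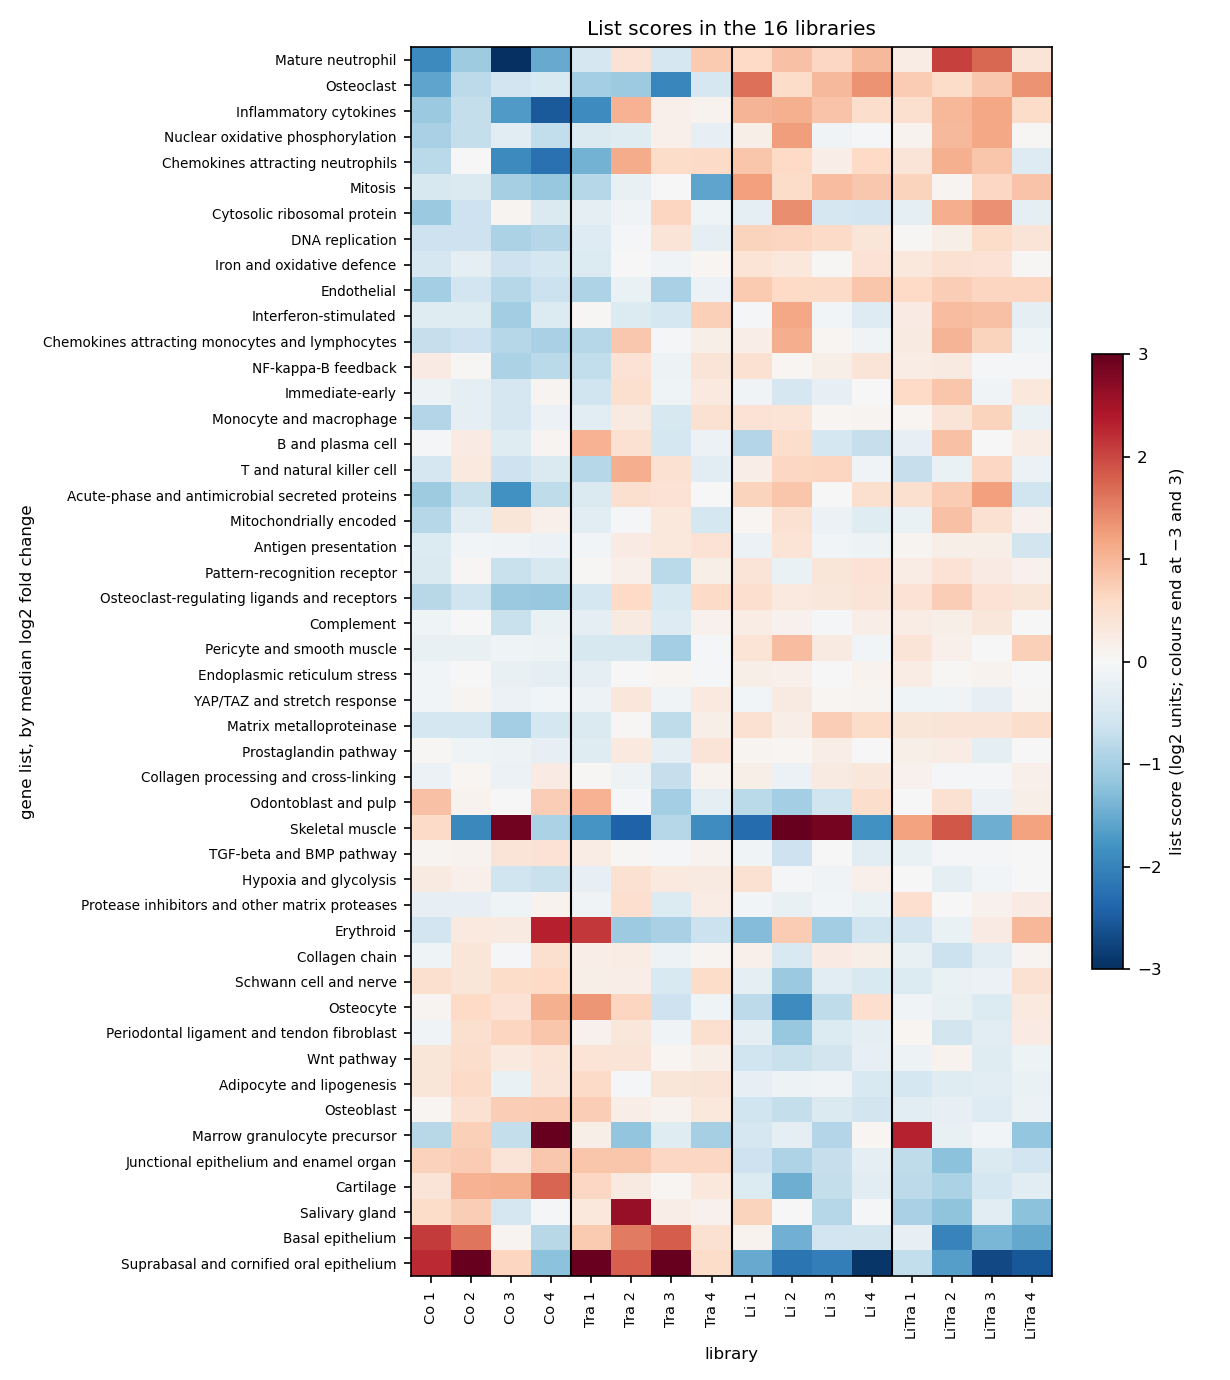
List score (colour, log2 units, mean over members of log2 CPM minus the mean of all 16 libraries) for 48 gene lists (rows, ordered by the median log2 fold change of LiTra over Co) in the 16 libraries (columns). The 4 LiTra columns are alike for osteoclast and endothelial genes, LiTra 2 and LiTra 3 stand out for neutrophil and ribosomal protein genes, and the epithelial rows vary within Co from 4.25 in Co 2 to -1.23 in Co 4.

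LiTra was set against Li to ask what the occlusal load added to the ligature. No gene passed (0 of 20953, 0%), and the lowest adjusted p was 0.919. Without adjustment, 734 genes (3.5%) had a p under 0.05, voom called none, and DESeq2 called 43 of 27877 genes (0.154%). Over 12168 genes with a mean log2 CPM above 2, the median half-width of the 95% interval of this difference was 0.64 on the log2 scale, so differences of that size remain possible for single genes. For the panel the LiTra minus Li differences were 0.31 (95% interval -1.07 to 1.69) for Saa3, 1.52 (95% interval -0.61 to 3.65) for Il6, -0.58 (95% interval -1.83 to 0.67) for Mmp3 and 0.78 (95% interval -0.305 to 1.86) for Il1b. Among bone genes they were -0.15 (95% interval -1.07 to 0.77) for Acp5, -0.15 (95% interval -0.96 to 0.66) for Ctsk, 0.097 (95% interval -1.42 to 1.61) for Tnfsf11 and 0.37 (95% interval -0.46 to 1.203) for Tnfrsf11b. All of these intervals include 0.

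Osteocalcin, Bglap, stood at 246, 431, 228 and 547 CPM in Li 1 to 4 and 812, 1115, 1348 and 686 CPM in LiTra 1 to 4. The difference was 1.45 (95% interval 0.67 to 2.22), with an unadjusted p of 0.00114 and an edgeR adjusted p of 1. Bglap2, whose reads may be shared with Bglap, gave 1.31 (95% interval 0.53 to 2.101). Smpd3 gave -0.04 (95% interval -1.15 to 1.07) and Dlx5 0.45 (95% interval -0.06 to 0.96). Fsip1, a gene named for binding fibrous sheath proteins, was among the genes with the lowest p, at 0.0473, 0.156, 0.3300 and 0.179 CPM in Li and 0.593, 2.405, 2.09 and 1.29 CPM in LiTra (edgeR adjusted p = 0.919). None of these differences survived adjustment, and over all genes only 3.5% had an unadjusted edgeR p under 0.05 in this comparison.

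**Figure D5:**
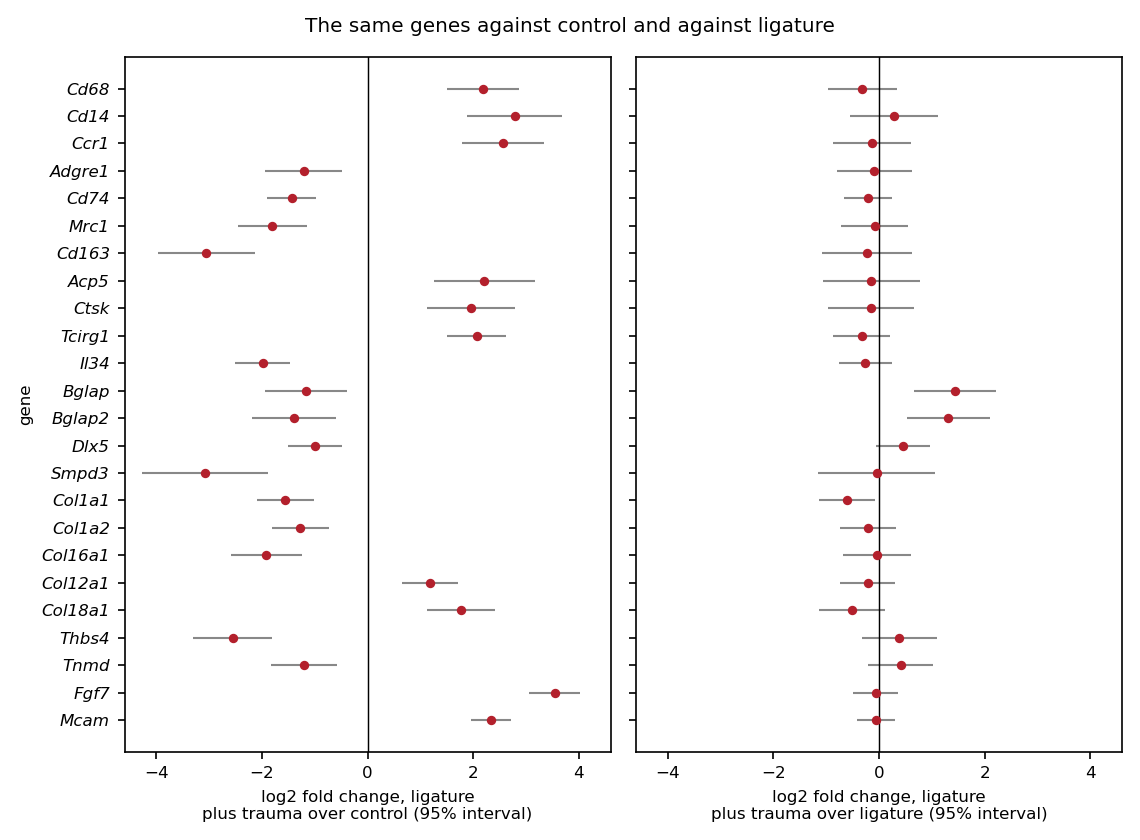
Log2 fold change with its 95% interval (horizontal axis) of LiTra over Co (left) and LiTra over Li (right) for 24 genes (rows) of the macrophage, osteoclast, osteoblast, matrix and vessel lists. All intervals on the left exclude 0, and on the right all include 0 apart from Bglap and Bglap2 above it and Col1a1 below it, none of which passed adjustment.

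LiTra was also set against Tra, to ask what the ligature added to the load. 1149 genes passed (5.48%), 464 higher (2.21%) and 685 lower (3.27%). The number was 714 without Tra 1, 575 without Tra 3, 576 without LiTra 2, 565 without LiTra 3, 686 without LiTra 4 and 403 in the 13 libraries. Fgf7 had the lowest p, at 30.8, 47.2, 41.8 and 40.8 CPM in Tra 1 to 4 against 464, 339, 312 and 242 CPM in LiTra (3.08 ± 0.22, edgeR adjusted p = 4.04e-06). Mmp3 differed by 7.39 ± 0.78 (0.000386), Saa3 by 6.99 ± 0.84 (0.000979) and Tcirg1 by 2.21 ± 0.27 (0.000979). Dner, a Notch ligand of neurons, stood at 18.6, 8.58, 11.9 and 17.6 CPM in Tra and 2.95, 1.81, 1.48 and 1.43 CPM in LiTra (-2.88 ± 0.31, 0.000411), and Thbs4 differed by -2.97 ± 0.36 (0.000979). Of the osteoclast genes 12 of 17 were higher than in Tra and of the endothelial genes 15 of 24, with none lower. Il6 (3.32 ± 1.08, 0.0894), Il1b (1.37 ± 0.52, 0.149) and Tnfsf11 (0.67 ± 0.72, 0.683) did not pass against Tra. Of 18 mature neutrophil genes 3 were higher, and of 21 inflammatory cytokine genes 1. LiTra is common to these comparisons and to that with Co, so they are not independent of one another.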

How the data were processed

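Poly(A) RNA-seq of mouse periodontal ligament was deposited as a table of gene counts for 16 libraries. Per the submitters' processing notes, the tools were HISAT2 2.2.1, Trimmomatic 0.39, StringTie 2.1.7, FastQC 0.11.9 and DESeq2 1.32.0, with genome build GRCm39. The counts were deposited by the authors as whole numbers with no normalization. Which tool, annotation release and strand setting gave the counts is not given in the sources used here, so reads of overlapping genes and near-identical copies cannot be separated.

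Genes were kept with edgeR's filterByExpr (minimum count 10). TMM scaling and edgeR 4.0.16 (R 4.3.3) quasi-likelihood tests were run in 1 fit of all 16 libraries with 12 residual degrees of freedom. P-values were adjusted by Benjamini-Hochberg over all genes, and genes passed at an adjusted p under 0.05. CPM used the TMM-scaled totals, and log2 CPM a prior count of 2. Alternatives used DESeq2 1.42.0 and voom (limma 3.58.1), other filters and scalings, a replicate block, removal of a spline on transcript length with 5 degrees of freedom, and fewer libraries. Gene symbols and transcript lengths came from a GRCm38 annotation and promoters from RefSeq on GRCm38.p6, so no GRCm39 coordinate is given.

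The genes named come from a set of 266 given by a rule, and not every gene of that set is named. The set holds the 10 with the largest fold change each way among passing genes without overlap between groups (mean log2 CPM 2 or more). It also holds up to 5 members of each of 48 lists by p with any member that passed against the list's direction, a panel of 12 genes, and the 10 lowest p against Li and against Tra. Predicted genes were left out. The comparison, lists, panel and doubted libraries were chosen with earlier results of these data known. On simulated counts the test recovered 73% of 200 changed genes for LiTra against Co among 20005 genes, with 3 false calls of 149. The changed genes were well counted and moved 4-fold. Genes varied independently, without the shift by transcript length or the varying epithelium of the real libraries. These rates therefore do not measure how the test performed on the real counts. Intervals and floors cover the model's error and counting error only.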

Additional observations from a re-analysis of the deposited data

Results flagged for a closer look

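In 12 of 154 groups of 4 libraries checked, 1 library lay far from the other 3, its gap to the nearest over the range of the group exceeding Dixon's 95% critical value for 4 values. For independent values without ties chance alone would give about 1 in 20. The groups checked include ties at 0 counts and shared libraries, so 12 of 154 cannot be set against that rate. Levels are in log2 CPM and the other libraries of the same group are given for comparison. Il6 stood at 8.47 in LiTra 2 against 6.84 to 6.901 in the others, and Sost at -2.41 in LiTra 3 against 0.55 to 0.84. Mmp13 stood at 9.59 in Co 1 against 11.73 to 11.87. Co 2 was high for Lyg1 (5.41 against -1.395 to -0.42), Lce1a1 (3.93 against -2.33 to -1.80004) and Rptn (9.55 against 3.92 to 4.77), which are genes expressed in epithelium. Single LiTra libraries held counts of epithelial genes that were without counts in the other 3, with Casp14 at -3.26 in LiTra 2, Gsdma at -3.15 in LiTra 1 and Lypd5 at -2.08 in LiTra 1. With the other 3 tied, any count in the remaining library is flagged, so these flags carry no weight. By list score, antigen presentation was -0.55 in LiTra 4 against 0.077 to 0.18, interferon-stimulated genes -1.03 in Co 3 against -0.41 to -0.37, and matrix metalloproteinases -1.03 in Co 3 against -0.54 to -0.52.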

How the results depend on the processing

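The number of genes passing in LiTra against Co (2609) was 4439 by DESeq2, 743 in the 13 libraries and 681 at an adjusted p under 0.01, and 1022 to 2785 with 1 library left out. Against Tra (1149) it was 2156 by DESeq2, 403 in the 13 libraries and 565 to 1000 with 1 library left out. Against Li it was 43 by DESeq2 and 0 under each other setting run. With the replicate number as a replicate block it was 2588 against Co, 1032 against Tra and 0 against Li. Of the genes named, the block ended the calls of Bglap (edgeR adjusted p = 0.074), Mmp13 (0.0558), Bpifb1 (0.0662) and Lce1a1 (0.052). Same-numbered libraries correlated at -0.0381 to 0.107 (Co and LiTra), -0.157 to 0.215 (Li and LiTra) and -0.0324 to 0.0779 (Tra and LiTra) in their deviations, so the numbers were not taken to pair libraries. With the length trend removed, 1556 were higher and 1040 lower against Co, a split of other proportions than 1431 and 1178. The direction turned for Tnfrsf11b in the 13 libraries (0.093) and for Postn with no expression filter (-0.00027) and over the range with 1 library left out (-0.29 to 0.27). Neither had passed. The cause of these shifts was not tested. The 13 libraries leave 2 in LiTra, so a call lost there also has fewer libraries behind it.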
